A study of Mus musculus with 6 samples.

Results

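The nuclear genes of oxidative phosphorylation were followed in follicular B cells that carried 1 or 2 floxed alleles of Myh9. Members were chosen by symbol alone, as every gene name that begins with Ndufa, Ndufb, Ndufc, Ndufs, Ndufv, Uqcr, Cox4 to Cox8 or Atp5, together with Sdha, Sdhb, Sdhc and Sdhd. These patterns, chosen with earlier results of these data known, took 92 of 20458 gene names. The FPKM of a gene was its summed entries, and the 85 members that averaged 1 FPKM or more over both genotypes were compared. Cells were sorted as B220+AA4.1-CD23+CD21lo from C57BL/6 mice, 3 samples of CD23Cre+Myh9wt/fl and 3 of CD23Cre+Myh9fl/fl. Both groups carry the CD23Cre driver, which removes the floxed exon of Myh9, the gene of the myosin IIa heavy chain, once B cells express CD23. The comparison group is therefore heterozygous for the deletion and not wild-type, and the ages of the mice are not given in the labels. The authors deposited 1 value per genotype, the level pooled over its 3 samples, in FPKM, the number of fragments scaled by transcript length and library size. Hence all values below come without a spread between samples, no difference was tested, and log2 ratios are fl/fl over wt/fl after 1 was added to each FPKM.

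Oxidative phosphorylation takes place in the inner mitochondrial membrane. Complexes I and II pass electrons from NADH and succinate to ubiquinone, complex III passes them on to cytochrome c, and complex IV hands them to oxygen. Complexes I, III and IV pump protons, and complex V, the ATP synthase, uses the returning protons to make ATP. Apart from complex II, these complexes combine subunits encoded in mitochondrial DNA with nuclear-encoded ones. Resting B cells rely on this pathway, and activated B cells enlarge it together with glycolysis.

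The pooled values carried the marks of follicular B cells. The 6 B cell markers, such as Cd79a and Cd79b, summed to 4294 FPKM in wt/fl cells and 4382 in fl/fl cells. Fcer2a, which encodes CD23, was at 439 and 588 FPKM, and Cr2, which encodes CD21, at 177 and 198 FPKM. Myh9, the deleted gene, was at 50.6 FPKM in wt/fl cells and 21.1 in fl/fl cells. Markers of other cells were not equal between the genotypes. The 12 neutrophil markers summed to 385 FPKM in wt/fl cells and 71.8 in fl/fl cells, and all 8 that were compared were lower in fl/fl. Their log2 ratios ran from −2.65 (Ngp) to −0.23 (Cxcr2, at 5.99 and 4.96 FPKM). Elane and Mpo were near the floor in both genotypes, at 0.119 and 0.0916 FPKM in wt/fl and listed at 0 in fl/fl. The 4 erythroid markers found in the table summed to 55.2 and 7.52 FPKM, most of it from Beta-s (52.0 and 7.08 FPKM). The 8 T cell markers summed to 24.6 and 22.9 FPKM, of which Lck gave 14.5 FPKM in both genotypes. The 9 macrophage and monocyte markers summed to 19.2 and 17.5 FPKM. Single markers went both ways, with 2 higher and 2 lower of the 4 compared T cell markers. Of the 5 compared macrophage and monocyte markers, 2 were higher and 3 lower. Fewer cells of a type and less RNA per cell cannot be told apart in such bulk samples, and the part of these cells in the differences between the members was not tested. The number of sequenced fragments per sample is unknown, since the smallest values above 0 go down to 7.62e-08 FPKM and hold no whole reads.

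The 85 compared members stood at nearly the same level in both genotypes. Their median log2 ratio was 0.051, beside 0.0026 over all 9866 compared genes. For 69 of the 85, the fl/fl level was within 10% of the wt/fl level, and for 78 it was within 20%. The shares of all compared genes within these bands were not computed. By log2 ratio, 14 members (Cox7a1 among them) were higher and 2 lower at or past 1.1-fold, where 19.98% and 20.2% of all compared genes were. Most compared genes thus also differed by less than this. A fold limit was set at 25% above the other genotype (0.32 on the log2 scale). At or past it, 2 members (2.35%), Ndufb6 and Cox7a1, were higher in fl/fl, where 4.6% of all compared genes were. Cox7a1 was compared only through its fl/fl level, since its wt/fl level was under 1 FPKM, so its place in this count is not support for a difference. Among members averaging 5 FPKM or more, Ndufb6 alone was higher past the limit, where 3.36% of all such genes were. Lower past the same limit was 1 member (1.18%), Uqcrb, where 5.48% of all compared genes were. Among members averaging 5 FPKM or more, Uqcrb alone was lower past the limit, where 3.64% of all such genes were. Both shares of the 85 lay below those of the compared genes at large, a difference that rests on few members and was not tested. In direction, 55 of the 85 (64.7%) were higher in fl/fl and 30 lower, whereas 50.5% of all compared genes were higher. Cox7a1 is among the 55. Of the 84 members averaging 5 FPKM or more, 54 were higher, where 52.0% of all such genes were. Members are abundant, and more of the abundant genes were higher in fl/fl. The part of abundance in the direction of the members was not tested. Among genes averaging 50 FPKM or more, 55.9% were higher in fl/fl, against 38 of 60 members (63.3%), and in this range the medians were 0.020 over all genes and 0.046 over the members.

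**Figure D1:**
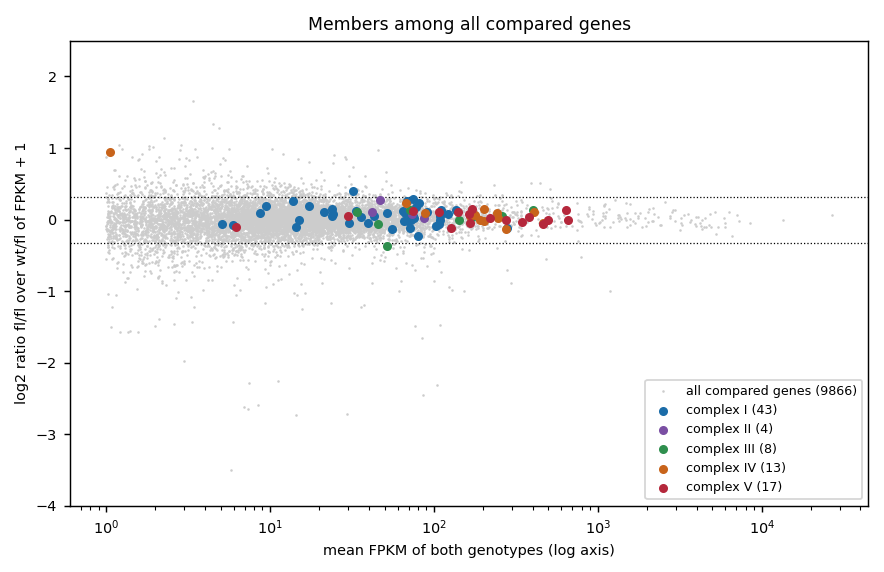
Mean FPKM of both genotypes (log axis) against the log2 ratio of FPKM + 1, fl/fl over wt/fl, with each compared gene as a grey point and each member coloured by complex. Dotted lines mark the fold limits, and all members but Ndufb6, Cox7a1 and Uqcrb lie between them.

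The Pearson correlation of log2(FPKM + 1) between the genotypes was 0.996 over the 85 genes, which share their libraries within a genotype. Mean levels span a 618-fold range, so a value near 1 says little, and it was not computed for other genes. The summed level of the members was 11180 FPKM in wt/fl cells and 11442 in fl/fl cells, or 1.88% and 1.92% of all FPKM in the table. By mean level, 36 members were at 100 FPKM or more, and 53 were among the 1000 highest gene names. The standard deviation of the log2 ratios was 0.12 over the 79 members that averaged 10 FPKM or more and 0.19 over all genes in that range.

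**Figure D2:**
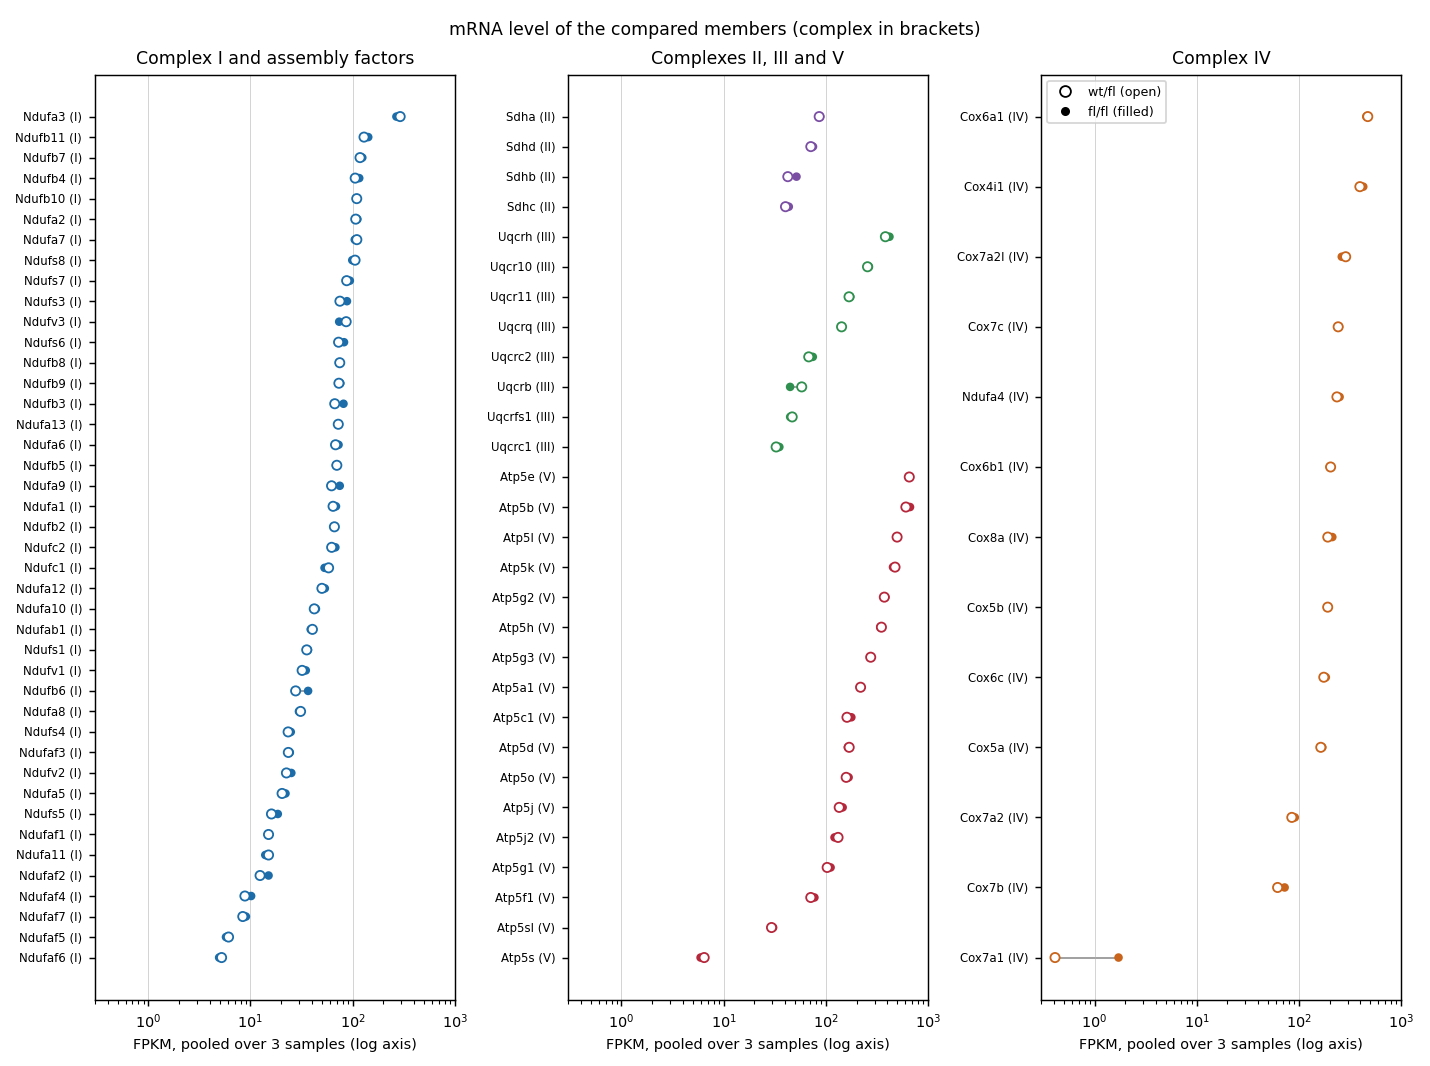
FPKM of the compared members but 1 (log axis) in wt/fl (open circles) and fl/fl (filled circles), each the authors' value pooled over 3 samples, for complex I, complexes II, III and V, and complex IV. The open and filled circles nearly coincide for most members, and the circles of Cox7a1, the member of lowest level, lie apart at 0.410 and 1.72 FPKM.

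Complex I, the NADH dehydrogenase, is the largest of the complexes and accounts for 43 of the members, 7 of them assembly factors. Its summed level was 2649 FPKM in wt/fl cells and 2723 in fl/fl cells, with a median log2 ratio of 0.054, 28 members higher and 15 lower. The 7 nuclear-encoded core subunits, which bind the flavin and the iron-sulfur clusters or form the quinone site, had a median of 0.10, and the 29 accessory subunits 0.054. The log2 ratios of their summed levels were 0.043 and 0.037, and no difference between core and accessory subunits was tested. In the N module, which oxidises NADH, 8 of 10 members were higher in fl/fl. This count, like those of the other modules and complexes, stands beside 50.5% of all compared genes. The summed level of the N module was 608 FPKM in wt/fl cells and 620 in fl/fl cells. Ndufv1, the flavin-binding subunit, was at 32.0 FPKM in wt/fl cells and 34.8 in fl/fl cells. Its partner Ndufv2 was at 22.5 and 25.1 FPKM, and Ndufs1, which carries several iron-sulfur clusters, at 35.5 and 36.6 FPKM. These catalytic subunits of the N module were among the less abundant members of the complex, below the accessory subunits Ndufa2 (107 and 111 FPKM) and Ndufa7 (110 and 105 FPKM). This did not divide core from accessory subunits at large. The accessory subunit Ndufs4 was at 23.4 and 24.8 FPKM, and the core subunits Ndufs7 and Ndufs8 at 87.4 and 93.9 FPKM and at 106 and 99.2 FPKM.

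The lowest log2 ratio of complex I, −0.22, belonged to Ndufv3, an accessory subunit of the N module that has 2 entries in the table, 1 for each coding sequence. The more abundant one was at 80.3 FPKM in wt/fl cells and 65.8 in fl/fl cells, a log2 ratio of −0.28. The other was at 6.19 and 8.11 FPKM, a log2 ratio of 0.34 in the opposite direction. How fragments common to both coding sequences were divided between them cannot be seen in the pooled values.

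In the Q module, which reduces ubiquinone, 4 of 6 members were higher and the median log2 ratio was 0.10. Ndufa9, an accessory subunit at the junction with the membrane arm, was at 62.2 FPKM in wt/fl cells and 74.8 in fl/fl cells, and Ndufs3 at 75.1 and 88.0 FPKM. Ndufs7, which holds the last iron-sulfur cluster of the chain, was at 87.4 and 93.9 FPKM. In the other direction, Ndufs8, another iron-sulfur subunit, was at 106 and 99.2 FPKM, a log2 ratio of −0.090. Subunits of the same module thus differed in direction.

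The membrane arm held the widest spread of levels and the only complex I member past the fold limit. Mean levels ran over a 19.3-fold range, from Ndufa11 (15.03 FPKM in wt/fl cells and 13.97 in fl/fl cells) to Ndufa3 (292 and 268 FPKM). Ndufb6 was at 27.7 FPKM in wt/fl cells and 36.7 in fl/fl cells, 132% of the wt/fl level and a log2 ratio of 0.39, at percentile 97.3 of all compared genes. Ndufb3 came next, at 66.8 and 81.4 FPKM (0.28). Ndufc1 had the lowest ratio of the arm, at 58.2 and 53.1 FPKM (−0.13). Of its 20 members, 12 were higher and 8 lower, with a median of 0.033. Ndufa13, also known as GRIM-19, was at 72.4 FPKM in both genotypes, and Ndufab1, the mitochondrial acyl carrier protein, at 40.4 and 38.9 FPKM.

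The 7 assembly factors that the symbol patterns took in, Ndufaf1 to Ndufaf7, help to build complex I and are not part of it. They were expressed at lower levels than the subunits, with a median of 8.82 FPKM in wt/fl cells and 10.2 in fl/fl cells, against 66.8 and 72.4 FPKM for the accessory subunits. Ndufaf2 had the highest log2 ratio, 0.26 (12.4 and 15.04 FPKM), and Ndufaf5 the lowest, −0.071 (6.10 and 5.76 FPKM). None of the 7 passed the fold limit.

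Complex II, succinate dehydrogenase, is also an enzyme of the TCA cycle and is encoded in the nucleus alone. It was the only complex with all of its members higher in fl/fl, but it has 4 members, and none reached the fold limit. Sdha, the flavoprotein, was at 86.2 FPKM in wt/fl cells and 87.8 in fl/fl cells (log2 ratio 0.026). Sdhb, the iron-sulfur subunit, was at 42.5 and 51.7 FPKM (0.28). The membrane anchors Sdhc and Sdhd were at 40.4 and 43.5 FPKM (0.10), and at 71.4 and 75.02 FPKM (0.070). The median log2 ratio was 0.088.

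Complex III, the cytochrome bc1 complex, had 8 members with a median log2 ratio of 0.044, 5 higher and 3 lower. The small hinge protein Uqcrh, which lies next to cytochrome c1, was the most abundant, at 383 FPKM in wt/fl cells and 420 in fl/fl cells. Uqcr10 followed at 256 and 265 FPKM, and Uqcr11 at 169 and 174 FPKM. The core proteins Uqcrc1 (32.7 and 35.1 FPKM) and Uqcrc2 (68.1 and 74.7 FPKM) were both slightly higher in fl/fl. The Rieske iron-sulfur protein Uqcrfs1 was at 46.9 and 44.8 FPKM.

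Uqcrb, which binds ubiquinone in complex III, was the only member lower in fl/fl past the fold limit. It was at 58.2 FPKM in wt/fl cells and 44.8 in fl/fl cells, 77.0% of the wt/fl level and a log2 ratio of −0.37, at percentile 4.17 of all compared genes. Uqcrb has 3 annotated pseudogenes that match at least 50% of its transcript at 95% identity or more, and how the authors' counting divided fragments among such copies is not known, so its value is uncertain. Of the 85 compared members, 7 have such a copy: Ndufs3, Ndufb11, Uqcrb, Atp5h, Atp5k, Atp5l and Atp5o. Of these 7, 3 were higher in fl/fl (Ndufs3, Ndufb11 and Atp5o), and Atp5l, with 8 copies the most of any, had a log2 ratio of −0.013. The median of the 7 was −0.013, and that of the other 78 was 0.052, with 52 higher. The part of such copies in the value of Uqcrb was not tested.

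Complex IV, cytochrome c oxidase, had 20 members, 13 of which were compared. Its 11 widely expressed subunits, among them Ndufa4, first assigned to complex I and now to complex IV, summed to 2418 FPKM in wt/fl cells and 2499 in fl/fl cells. Of these, 8 were higher and 3 lower, with log2 ratios from −0.048 to 0.23. Cox6a1 was at 472 and 457 FPKM, Cox4i1, which regulates the enzyme in response to ATP, at 395 and 426 FPKM, and Cox7c at 242 and 247 FPKM. Ndufa4 was at 235 and 250 FPKM, Cox5a at 164 and 170 FPKM, and Cox5b at 191 and 190 FPKM. Cox7b, at 61.9 and 72.5 FPKM, had the highest ratio of the 11 (0.23), and Cox8a, at 192 and 212 FPKM, the next (0.15). Cox7a2l, a factor linked to supercomplexes of complexes III and IV, was at 287 and 263 FPKM, a log2 ratio of −0.13.

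Several complex IV subunits have a second isoform that is typical of other tissues, and these isoforms were near or at 0 in both genotypes. Cox4i2, the hypoxia-responsive isoform found in lung, and Cox7b2 and Cox8c, known from testis, were listed at 0 in both. Ndufa4l2, a hypoxia-induced relative of Ndufa4, was listed at 0 in wt/fl and at 0.0824 FPKM in fl/fl. The heart and muscle isoforms Cox6a2 and Cox8b were at 0.261 and 0.125 FPKM, and at 0.206 and 0.193 FPKM. Cox6b2, a testis isoform, was at 0.935 FPKM in wt/fl cells and 0.391 in fl/fl cells, a mean of 0.663 FPKM that put it just outside the comparison. Just inside, with a mean of 1.06 FPKM, was Cox7a1, the heart and muscle isoform of Cox7a2.

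Cox7a1 was at 0.410 FPKM in wt/fl cells and 1.72 in fl/fl cells, a log2 ratio of 0.95 with 1 added to each value and of 2.06 without. It was the lowest of the compared members, and its fl/fl level alone brought it into the comparison, so its log2 ratio is given as a value only and is not ranked among the members. In the same cells Cox7a2 was at 85.2 and 91.1 FPKM, so Cox7a1 was a minor form in both genotypes. The RefSeq promoter stretches of this pair, the 250 bases before each start on GRCm38.p6, are set out here because the encoded isoforms occupy the same place in the enzyme while their mRNA levels lie far apart. Neither stretch holds the letters searched for NRF1, ETS factors or YY1.
Cox7a2, minus strand, chr9:79759854-79760103: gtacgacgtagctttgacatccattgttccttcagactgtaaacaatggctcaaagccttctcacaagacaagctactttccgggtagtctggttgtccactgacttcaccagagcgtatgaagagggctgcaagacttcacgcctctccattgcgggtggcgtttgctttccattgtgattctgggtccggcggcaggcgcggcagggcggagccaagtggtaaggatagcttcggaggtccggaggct
Cox7a1, plus strand, chr7:30183921-30184170: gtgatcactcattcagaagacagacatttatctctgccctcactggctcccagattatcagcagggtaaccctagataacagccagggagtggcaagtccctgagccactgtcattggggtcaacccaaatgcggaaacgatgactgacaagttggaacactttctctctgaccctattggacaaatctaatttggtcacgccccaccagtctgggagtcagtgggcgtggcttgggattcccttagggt

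Complex V, the ATP synthase, held the most abundant members. Its 17 members summed to 4426 FPKM in wt/fl cells and 4497 in fl/fl cells, with a median log2 ratio of 0.019, 9 higher and 8 lower, and none passed the fold limit. In the catalytic F1 part, Atp5b, the catalytic beta subunit, was at 608 and 668 FPKM, whereas Atp5a1, the alpha subunit with which it alternates in the ring, was at 219 and 222 FPKM. The central stalk subunits were at 161 and 178 FPKM for Atp5c1, 169 and 165 FPKM for Atp5d, and 657 and 656 FPKM for Atp5e. Atp5b and Atp5c1 had the highest log2 ratios of the complex, 0.13 and 0.14. Atp5c1 is the sum of 2 entries that differed in direction. The abundant one was at 158 and 175 FPKM (0.15), the other at 3.56 and 3.27 FPKM (−0.095). In the peripheral stalk, Atp5f1 (71.3 and 77.4 FPKM), Atp5j (135 and 146 FPKM) and Atp5o (158 and 167 FPKM) were higher in fl/fl, and Atp5h (351 and 342 FPKM) was lower. All 3 other membrane subunits were lower in fl/fl, Atp5l at 499 and 494 FPKM, Atp5k at 476 and 455 FPKM, and Atp5j2 at 132 and 122 FPKM. The patterns also took in Atp5s (6.46 and 5.95 FPKM) and Atp5sl (29.4 and 30.5 FPKM), which are not subunits of the enzyme.

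The proton-carrying c-ring is built from a single mature protein that Atp5g1, Atp5g2 and Atp5g3 all encode with different mitochondrial targeting sequences. Atp5g2 was the most abundant, at 374 FPKM in wt/fl cells and 382 in fl/fl cells. Atp5g3 was at 275 and 274 FPKM, and Atp5g1 at 103 and 111 FPKM. Their order was the same in both genotypes, and their sum was 753 FPKM in wt/fl cells and 768 in fl/fl cells. Their promoter stretches, again the 250 bases before each start from RefSeq on GRCm38.p6, are given to show how the regulatory sequences of genes for the same product differ. Capitals mark 2 overlapping matches to GCGCATGC or its reverse complement, the core of the site of the transcription factor NRF1, and these were found in Atp5g2 alone of the 3.
Atp5g1, minus strand, chr11:96075632-96075881: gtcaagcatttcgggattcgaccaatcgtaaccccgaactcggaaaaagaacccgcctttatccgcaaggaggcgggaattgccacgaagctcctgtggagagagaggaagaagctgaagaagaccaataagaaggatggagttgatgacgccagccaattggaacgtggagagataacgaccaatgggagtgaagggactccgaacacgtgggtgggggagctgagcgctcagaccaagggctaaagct
Atp5g2, minus strand, chr15:102671048-102671297: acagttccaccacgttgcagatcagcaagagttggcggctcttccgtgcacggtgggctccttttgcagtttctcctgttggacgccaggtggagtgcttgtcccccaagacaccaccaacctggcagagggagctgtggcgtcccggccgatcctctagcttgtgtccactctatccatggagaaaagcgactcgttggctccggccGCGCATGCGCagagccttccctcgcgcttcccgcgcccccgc
Atp5g3, minus strand, chr2:73911327-73911576: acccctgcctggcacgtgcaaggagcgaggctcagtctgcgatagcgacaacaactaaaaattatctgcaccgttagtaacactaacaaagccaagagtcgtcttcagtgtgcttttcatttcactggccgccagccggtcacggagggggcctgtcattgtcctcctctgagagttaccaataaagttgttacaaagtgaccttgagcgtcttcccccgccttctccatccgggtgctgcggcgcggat

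NRF1, the ETS factor GABPA and YY1 are known to act on many nuclear genes of mitochondria. A RefSeq promoter window, from 250 bases before to 50 bases after the start, was found for 70 of the 85 compared members. On either strand, GCGCATGC (NRF1) occurred in 12 of the 70 (17.1%), beside 6.78% of 7509 compared genes with a window and 2.71% of all 32851 windows. AAGATGGC (YY1) occurred in 9 (12.9%), beside 6.07% and 2.75%. CCGGAAGT (ETS) occurred in 5 (7.14%), beside 10.4% and 3.89%. A match is only a run of letters in the window and not a bound site. The 12 members with GCGCATGC, such as Atp5g2, Cox6a1 and Sdhb, had a median log2 ratio of 0.0079, and the 58 without it 0.076. For AAGATGGC the order was the opposite, 0.083 with it and 0.053 without, as for CCGGAAGT, 0.13 over the 5 members with it and 0.053 without. No test of these splits was made. The mRNA of the factors was at similar levels in both genotypes, Nrf1 at 19.5 and 19.8 FPKM, Gabpa at 34.7 and 32.6 FPKM, and Yy1 at 42.8 and 42.4 FPKM.

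**Figure D3:**
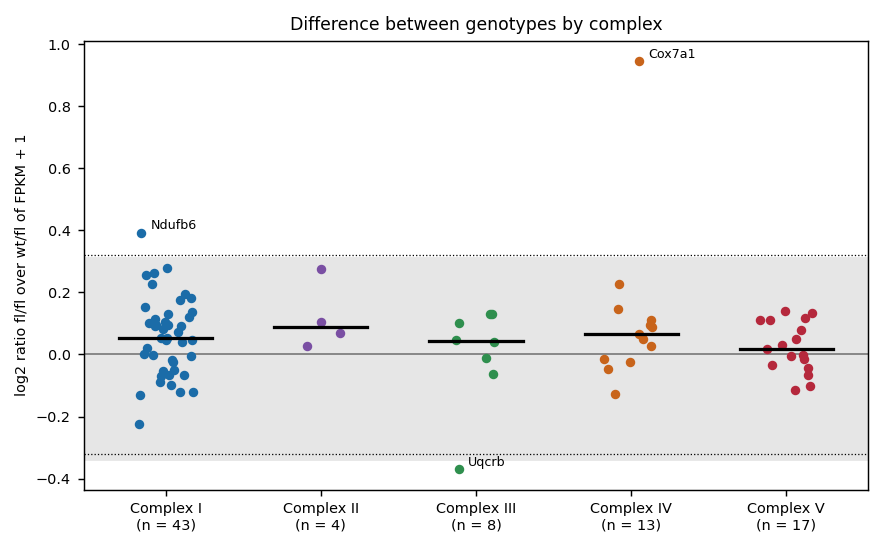
Log2 ratio of FPKM + 1, fl/fl over wt/fl, of each compared member by complex, with the median of each complex as a black bar. The grey band spans the 5th to 95th percentile of all compared genes, the grey line is their median, and dotted lines mark the fold limits. The 5 medians lie between 0.019 (complex V) and 0.088 (complex II), and 82 of the 85 members lie inside the band. The complex IV median, 0.066, includes Cox7a1, which was compared only through its fl/fl level. It was 0.058 over complex IV members averaging 5 FPKM or more.

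Other genes of the same organelle were compared from lists. Their counts stand beside 50.5% of all compared genes higher in fl/fl by any amount, and 4.6% higher and 5.48% lower past the fold limit. Electron carriers and subunits that bear other names had the highest median, 0.12 over 8 genes. In this list the complex V subunits 2010107E04Rik and Usmg5 were at 440 and 398 FPKM and at 138 and 167 FPKM. Etfb, which with Etfa feeds electrons from fatty acid oxidation into the chain, was at 46.2 and 59.4 FPKM, a log2 ratio of 0.35 and the only one of the list past the fold limit. Its acceptor Etfdh was at 16.6 and 14.2 FPKM (−0.20). Cyc1, the cytochrome c1 of complex III, was at 81.2 and 86.5 FPKM, and Cycs, cytochrome c, at 16.1 and 17.0 FPKM. The 13 subunits encoded in mitochondrial DNA were looked up by their mt- symbols. Under these symbols 0 were found, so they were not analysed here.

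Of the 76 mitochondrial ribosomal protein genes, whose products translate those mitochondrial mRNAs, 53 were higher in fl/fl and 23 lower, with a median of 0.098. Past the fold limit, 3 were higher and 1 lower, where 4.6% and 5.48% of all compared genes were. Mrpl52 (202 and 211 FPKM) and Mrps21 (195 and 179 FPKM) were the most abundant, Mrps27 had the highest log2 ratio (0.46, at 5.14 and 7.45 FPKM) and Mrps6 the lowest (−0.54, at 24.5 and 16.6 FPKM). The 25 assembly factors of complexes II to V had a median of 0.038, 15 higher and 10 lower, and none passed the limit. Cox17, a copper chaperone of complex IV, was at 160 and 180 FPKM and Cox14 at 65.9 and 65.3 FPKM. Cox15, which makes heme A, had the highest log2 ratio (0.29) and Cox18 the lowest (−0.25). Of the 6 complex I assembly factors outside the symbol patterns, 3 were higher and 3 lower (median −0.014). Tmem126b, at 16.5 and 21.7 FPKM (0.37), passed the limit, and Nubpl had the lowest log2 ratio (−0.18).

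The 16 TCA cycle genes had a median of 0.027, 9 higher and 7 lower, and none passed the limit. Mdh2 was at 160 and 158 FPKM, Idh3g at 114 and 133 FPKM (log2 ratio 0.23, the highest), and Suclg1 at 52.2 and 46.7 FPKM (−0.16, the lowest). The 14 regulators of mitochondrial biogenesis had a median of 0.020, with log2 ratios from −0.19 (Polg) to 0.11 (Tfb1m). Myc was at 45.7 and 46.4 FPKM, Tfam, which packages and transcribes mitochondrial DNA, at 35.0 and 34.1 FPKM, and the coactivators Ppargc1a and Ppargc1b at 1.44 and 1.53 FPKM and at 2.55 and 2.74 FPKM.

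**Figure D4:**
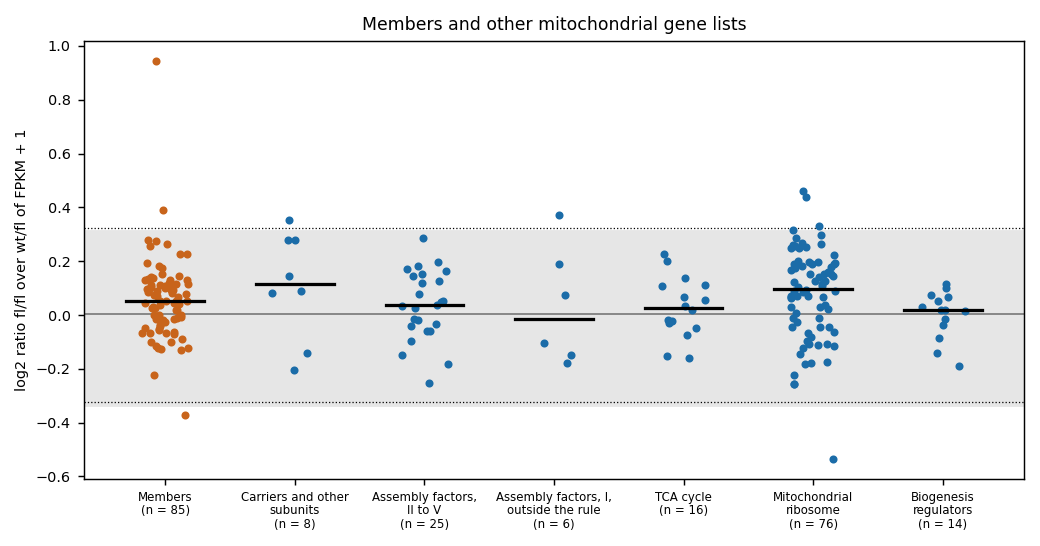
Log2 ratio of FPKM + 1, fl/fl over wt/fl, of each compared gene among the members (orange) and 6 other mitochondrial lists (blue), with medians as black bars, the 5th to 95th percentile of all compared genes in grey and the fold limits dotted. List medians run from −0.014 (complex I assembly factors outside the patterns) to 0.12 (carriers and other subunits), beside 0.051 for the members.

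Most members have short transcripts. The longest GENCODE transcript of the members had a median of 971 bases, against 3044 bases over 9306 compared genes with a known length. Genes with transcripts longer than 1000 and up to 2000 bases had a median log2 ratio of 0.040 and 58.4% of them were higher in fl/fl, beside a median of 0.046 and 16 of 29 higher for the members of that length. Genes of up to 1000 bases had a median of 0.015 and 52.1% higher, beside 0.060 and 29 of 44 for the members. Over 2000 bases the median was −0.0063 and 48.5% of genes were higher, beside 0.045 and 10 of 12 for the members. The part of length in the member ratios was not tested.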

How the data were processed

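Follicular B cells were sorted for 3 samples of each genotype, and per the labels their RNA was amplified with the Ovation RNA-Seq system V2 and made into TruSeq Nano libraries. The submitters' processing notes name Bowtie, TopHat and Cufflinks, and the builds mm10 and GRCm38. Versions and options are not given in the sources used here. The authors deposited 1 table in the layout of Cuffdiff, with an FPKM for each genotype pooled over its samples. Each of the 25017 entries stands for the transcripts with 1 coding sequence. Only 6 of 89 members overlap their GRCm38 position in RefSeq, so the table's positions are of another build and are not printed. Its fold changes, test statistics, p-values and q-values are the authors' own comparison and were not used.

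FPKM was summed per gene name, after 44 entries whose symbol a spreadsheet had turned into a date were left out. Of the members, 3 (Atp5c1, Cox7a2l and Ndufv3) have 2 entries. Genes that averaged 1 FPKM or more were compared as log2 ratios with a pseudocount of 1, which understates differences of low genes. Genes were counted as past the limit when 1 genotype was at least 25% above the other on that scale. With 1 pooled value per genotype no test was made. Depth is unknown, so no counting interval can be given. Members and lists were chosen with earlier results of these data known. Genes named were core subunits, the most abundant and most different members of each complex, members past the limit, isoform families and, of other lists, the 2 most abundant genes and the largest difference each way. Others, such as Ndufa13, Tfam and Cyc1, were named after their values were seen, and some genes are not reported by name. Transcripts and pseudogenes came from GENCODE M21 (BLAST+ 2.17.0) and promoters from RefSeq GRCm38.p6. Computations (Python 3.11.15, pandas 2.3.3) were tested on simulated data. Other pseudocounts, filters, scalings and fold limits were tried as alternatives.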

Additional observations from a re-analysis of the deposited data

How the results depend on the processing

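The medians of all members and of the 5 complexes were recomputed with other pseudocounts, filters, scalings, and the highest entry per gene, and those of all members and of complexes I, IV and V also without matches that are no subunits (for complex IV an alternative chosen after seeing the data). In all 58 such values the sign was kept and the median moved by less than 0.05, a limit set by hand because no spread between samples exists. This limit is about as large as the median of all members (0.051) and larger than those of complexes III (0.044) and V (0.019). Staying within it therefore says little about the size of a median. Several alternatives left the genes and entries of a complex unchanged, so its median could not move. The largest move, 0.039, was in complex II, from 0.088 to 0.048 for members averaging 50 FPKM or more. The median of all members ran from 0.045 (upper quartile scaling) to 0.054. The counts past the fold limit depended on the limit and the filter. At 1.1-fold, 14 members were higher and 2 lower, where 19.98% and 20.2% of all compared genes were, and at 1.5-fold 1 (Cox7a1) was higher and 0 lower, where 0.791% and 1.53% were. Cox7a1, which was compared only through its fl/fl level, is in both counts of higher members, and its place there is not support for a difference. Among members averaging 5 FPKM or more, 1 (Ndufb6) was higher, where 3.36% of all such genes were. Without a filter, 2 were lower, Uqcrb and Cox6b2, where 4.49% of all genes were. With filters chosen after seeing the data, 1 member was higher among those averaging 10 FPKM or more and 0 among those averaging 50 FPKM or more, where 2.76% and 1.90% of all genes were. With each of these filters 1 member, Uqcrb, was lower, where 2.77% and 3.39% of all genes were. No paired analysis was possible because the deposited values are pooled over the samples of a genotype, and for the same reason no sample could be left out.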
